A study of Homo sapiens with 2 samples.

Results

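NDRG1, BNIP3L, VEGFA and LDHA are widely used readouts of the transcriptional response to low oxygen. The 4 genes were chosen with earlier results of these data known. They were taken by gene symbol, as every probe set that the platform annotation pairs with these symbols. Each of the 4 genes had 1 probe set among 14884 named genes. The measurements came from AsPC-1, an established human pancreatic adenocarcinoma cell line, cultured under a collagen gel overlay. The compressed culture was kept for 24 h under a compressive stress of 2.9 mmHg, and the uncompressed culture was kept for 24 h in the same overlay with no such load. Both groups are 1 culture of 1 cell line in the same medium, the labels name no other cells, and each gave 1 RNA sample for 1 whole-transcript array, the GeneChip Human Gene 2.0 ST. With 1 array per condition there is no replicate check and no test, so differences are described by size on these 2 arrays, whose number limits the precision.

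Hypoxia-inducible factors (HIFs) are heterodimers of an oxygen-sensitive alpha subunit and ARNT. When oxygen is plentiful, prolyl hydroxylases of the EGLN family mark the alpha subunit for VHL-dependent destruction, and when oxygen is short the dimer accumulates and binds DNA at a short core sequence in its target genes. The targets raise glucose uptake and glycolysis, release vessel-acting factors, remove mitochondria and restrain growth, and hypoxia of this kind is common in pancreatic tumours. Several of these genes also answer to other regulators, among them ATF4 for VEGFA and DDIT4, and FOXO factors for BNIP3L.

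The core sequence ACGTG was searched on both strands in the 250 bases before the annotated start of each gene, taken from RefSeq (GRCh38.p14). LDHA and DDIT4, a HIF target chosen for display after its values were seen, are shown because LDHA was nearly equal in both cultures and DDIT4 was not. Both windows lie on the plus strand, LDHA at chr11:18394313-18394562 and DDIT4 at chr10:72273674-72273923, and capitals mark ACGTG or its reverse complement CACGT. No promoter entry was matched for NDRG1, BNIP3L or VEGFA.
LDHA: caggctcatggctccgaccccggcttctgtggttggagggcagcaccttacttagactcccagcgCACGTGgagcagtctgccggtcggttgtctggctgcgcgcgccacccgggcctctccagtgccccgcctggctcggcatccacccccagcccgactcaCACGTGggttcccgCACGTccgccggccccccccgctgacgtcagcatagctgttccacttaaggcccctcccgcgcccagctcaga
DDIT4: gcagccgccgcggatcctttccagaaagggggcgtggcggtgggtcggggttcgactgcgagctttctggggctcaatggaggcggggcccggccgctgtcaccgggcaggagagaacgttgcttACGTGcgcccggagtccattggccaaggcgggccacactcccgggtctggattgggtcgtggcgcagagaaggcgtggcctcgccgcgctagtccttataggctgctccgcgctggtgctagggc
The LDHA window held 3 marked stretches, beginning 185, 87 and 73 bases before the start. At 2 of them the core lies within CACGTG, which reads the same on both strands and is also the E-box bound by factors such as MYC. The DDIT4 window held 1, beginning 125 bases before the start.

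The 4 members did not differ together. In the compressed culture NDRG1 and BNIP3L were higher by 1.5-fold or more (a log2 difference of at least 0.58), VEGFA was slightly higher and LDHA was nearly equal. A level floor was set at 4.79, the median over genes, and of the 7442 genes that reached it 3.95% were higher and 1.12% lower by that size, so 2 of 4 members passed where 294 of 7442 kept genes did. No member was lower by that size. The members were chosen with earlier results of these data known, so their count is a description of that choice and not a test. Genes called kept have a mean of both arrays at or above this floor, and genes called under the floor have a mean below it. All 4 members lay above it on both arrays.

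NDRG1 encodes a cytoplasmic protein induced by hypoxia, metals and differentiation and is known as a restraint on growth and metastasis. It had a log2 RMA signal of 6.28 in the compressed culture, against 5.21 in the uncompressed culture. The difference of 1.07, or 2.10-fold, ranked 58 among the 7442 kept genes, counted from the most positive. Among the 2406 other kept genes within 0.5 log2 units of its mean level, 13 had a difference at least as large, and 95% of those genes lay between -0.47 and 0.69. Its uncompressed signal was 0.42 above the floor, and since no detection calls were used here, whether a signal that dim was fully above background is unknown.

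BNIP3L, also called NIX, encodes a receptor of the outer mitochondrial membrane that recruits the autophagy machinery to mitochondria. Its signal was 9.26 in the compressed culture, against 8.37 in the uncompressed culture, both far above the floor. The difference of 0.89, or 1.85-fold, ranked 99 among kept genes. Of 490 kept genes of similar level, 6 had a difference at least as large, and 95% lay between -0.44 and 0.77.

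VEGFA encodes the main secreted growth factor of blood vessels. Its signal was 5.39 in the compressed culture, against 5.18 in the uncompressed culture. This difference of 0.21, or 1.16-fold, was equalled or passed by 592 of 2646 kept genes of similar level (22.4%). VEGFA therefore stood within the bulk of genes of its brightness.

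LDHA encodes the lactate dehydrogenase subunit that turns pyruvate into lactate at the end of anaerobic glycolysis. Its signal was 5.97 in the compressed culture, against 6.01 in the uncompressed culture, a difference of -0.04. Of 2291 kept genes of similar level, 1453 (63.4%) had a difference at or above that value. LDHA was read by 1 probe set, 1.17 above the floor in the compressed and 1.21 above it in the uncompressed culture. How well that probe set follows its transcript was not tested, so near-equal signals do not settle whether LDHA mRNA was unchanged.

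**Figure D1:**
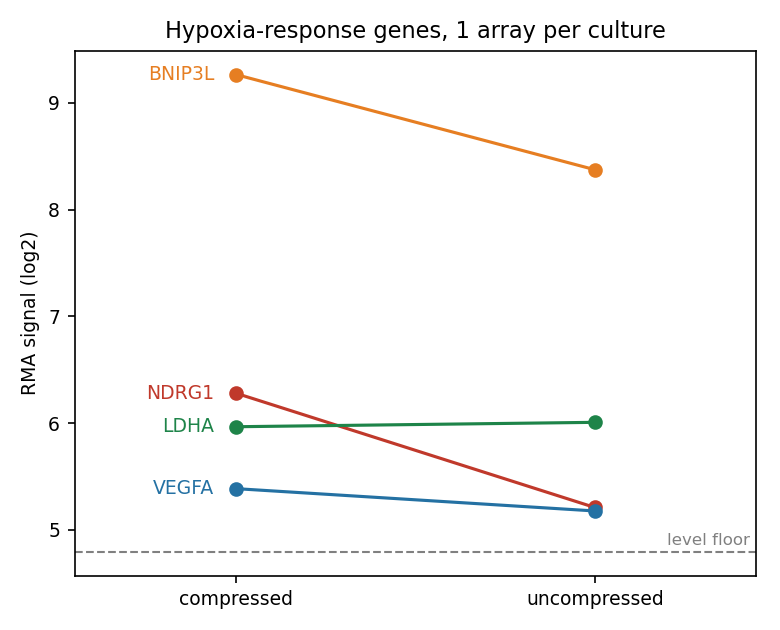
Log2 RMA signal (vertical axis) of the 4 genes on the compressed and the uncompressed array, 1 point per array, joined by gene. The lines of NDRG1 (6.28 and 5.21) and BNIP3L (9.26 and 8.37) are higher at the compressed end, while those of VEGFA and LDHA are close to level, and the dashed line is the floor of 4.79. Heights of different genes are not comparable, since each probe set has its own brightness.

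**Figure D2:**
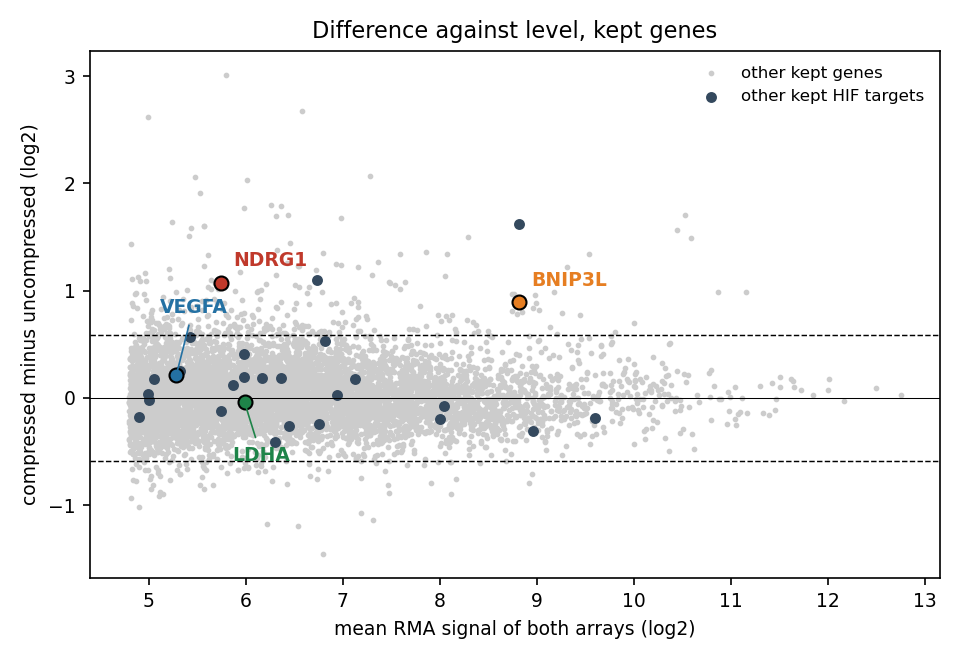
Compressed minus uncompressed difference (log2, vertical axis) against the mean signal of both arrays (log2, horizontal axis) for the 7442 kept genes, with the 4 members labelled, other HIF targets dark and dashed lines at 1.5-fold. NDRG1 at 1.07 and BNIP3L at 0.89 lie above the upper line, and VEGFA at 0.21 and LDHA at -0.04 lie within the bulk of the genes.

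A wider list of HIF targets, which includes the 4 members, was arranged by role. This list and the gene lists below were also chosen with earlier results of these data known, so their shares are descriptions. Of 71 listed genes, 42 had a named probe set and 28 were kept, the 4 members among them. Of these 28, 4 were at least 1.5-fold higher (14.3%, against 3.95% of all kept genes) and 0 lower, and 17 had a positive difference, as did 3777 of the 7442 kept genes (50.8%). The 4 were IGFBP1, DDIT4, NDRG1 and BNIP3L. The median difference was 0.15, against 0.01 over all kept genes, but it was 0.0043 over the 42 named genes with no level filter. Of those 42, 5 were higher, now with CCNG2, and 1, BNIP3, was lower. CCNG2 and BNIP3 are both under the floor. With no filter, 3.76% of all 14884 named genes were higher and 2.83% lower. Without the 4 members, 2 of 24 kept targets were higher (8.33%), with a median of 0.08, so the count beyond the members rests on DDIT4 and IGFBP1 alone.

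Among the secreted and vessel-acting targets, 1 of 7 kept genes passed 1.5-fold (14.3%, against 3.95% of all kept genes). Of the 7, 6 had a positive difference, with a median of 0.41. That median was 0.17 over all 11 named genes. With a level filter at the 75th percentile it was 1.08, but only IGFBP1 and IGFBP3 were left there. IGFBP1, a binding protein of insulin-like growth factors, had a signal of 9.63 in the compressed culture, against 8.01 in the uncompressed culture, a difference of 1.62. ADM, the vasodilator peptide adrenomedullin, fell just short, with 5.70 in the compressed culture, against 5.14 in the uncompressed culture (0.57). IGFBP3 differed by 0.53 and EDN1, the vasoconstrictor endothelin-1, by 0.41, while ANGPTL4 and EPO differed by 0.17 and -0.18. PGF, STC1, STC2 and LEP lay under the floor, with differences from -0.17 to 0.00.

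The targets of glucose uptake and glycolysis, to which LDHA belongs, showed no difference of 1.5-fold. Of the 10 named genes, all of them kept, 0 passed 1.5-fold in either direction, 3 had a positive and 7 a negative difference, and the median was -0.16, against a positive share of 50.8% and a median of 0.01 over all kept genes. The largest sizes were those of the glycogen synthase gene GYS1 at -0.41, of PGAM1, phosphoglycerate mutase, at -0.31, of HK2, the hypoxia-inducible hexokinase, at -0.26, and of PGM1 at -0.20. GPI differed by -0.19 and TPI1 by -0.13. HK1 and GAPDH each differed by 0.19. GAPDH and TPI1 were dim, with 6.46 and 5.68 in the compressed culture, against 6.27 and 5.80 in the uncompressed culture. GPI and PGAM1 were brighter, with 9.51 and 8.81 in the compressed culture, against 9.70 and 9.12 in the uncompressed culture. How well the probe sets of these genes follow their transcripts was not tested. PGK1, a classical HIF target, differed by 0.02, but repeated quantile normalization gave -0.030, so it had no settled sign. The other 14 listed genes, among them SLC2A1 and PDK1, had no named probe set and were not analysed here.

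Of the mitochondrial targets, BNIP3L alone passed 1.5-fold among 2 kept genes. The other was MXI1, a MYC antagonist, whose brighter probe set differed by 0.25 and whose second, dimmer probe set differed by -0.16, so its mean difference was 0.05 and its direction is not settled. BNIP3, the closest relative of BNIP3L and itself a strongly hypoxia-induced mitophagy receptor, read 3.29 in the compressed culture, against 4.02 in the uncompressed culture. Its difference of -0.73 was the only 1 among the 42 named HIF targets that was lower by 1.5-fold or more. Both values lie under the floor, and without detection calls it is unknown whether either exceeds background. The size and direction of this difference are therefore not settled. The same limit holds for the other differences given here for genes under the floor. COX4I2, a hypoxia-linked cytochrome oxidase subunit, was also under the floor and differed by -0.40.

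Of the growth and stress targets, 2 of 6 kept genes passed 1.5-fold (33.3%, against 3.95% of all kept genes). NDRG1, a member, is among these, so beyond the members only DDIT4 passed. Of the 6, 3 had a positive difference, and the median was 0.08. With no level filter 3 of 9 passed and the median was 0.18, and with a filter at the 75th percentile 1 passed and it was 0.05. DDIT4, also called REDD1, an inhibitor of mTORC1, had a signal of 7.28 in the compressed culture, against 6.18 in the uncompressed culture. Its difference of 1.10 was close to that of NDRG1. INSIG2 differed by 0.18, MAFF by -0.02, ERO1A, an oxidase of the endoplasmic reticulum, by -0.08 and ZNF395 by -0.24. The difference of MAFF was 0.0058 after loess correction. Under the floor, CCNG2 had 4.81 in the compressed culture, against 4.19 in the uncompressed culture, and ANKRD37, a selective HIF target, had 4.46 in the compressed culture, against 3.89 in the uncompressed culture. RORA, also under the floor, differed by -0.33.

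The oxygenase and matrix targets showed small differences. Of 3 kept genes, 0 passed, with the histone demethylase genes KDM3A and KDM4C at 0.19 and 0.04 and EGLN1 at 0.12. EGLN3, usually among the most hypoxia-responsive HIF targets, was under the floor with 4.25 in the compressed culture, against 4.32 in the uncompressed culture. LOX, LOXL2 and KDM4B were under the floor too, with differences from -0.15 to 0.15. Of the pH list only CA12 was named, under the floor at -0.16, and CA9 was not analysed here.

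**Figure D3:**
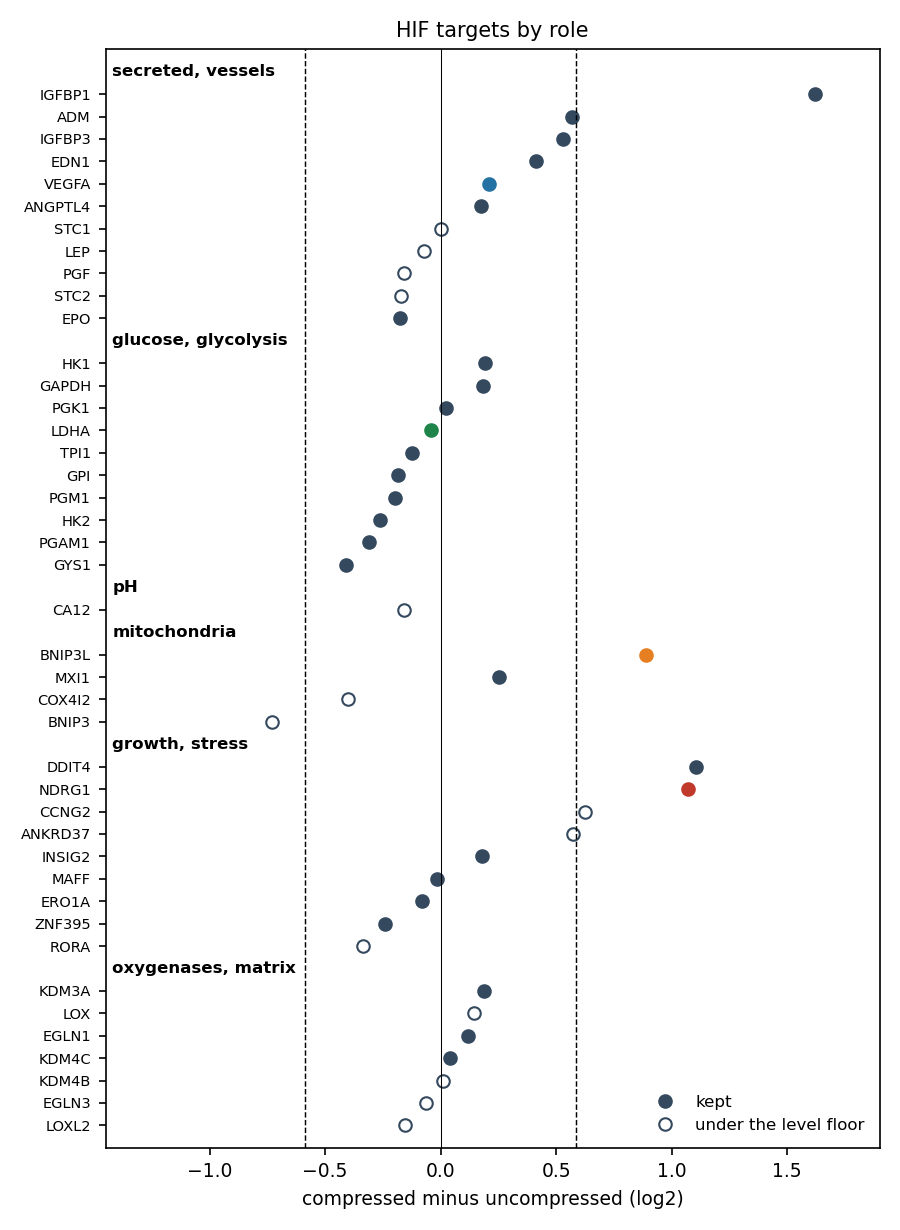
Compressed minus uncompressed difference (log2, horizontal axis) of the 42 named HIF targets by role, 1 point per gene, filled where kept and open where under the level floor, with dashed lines at 1.5-fold. NDRG1, BNIP3L, DDIT4 and IGFBP1 are the filled points beyond the upper line, and the glycolysis genes spread from -0.41 to 0.19.

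A published tumour hypoxia signature of 15 genes, which shares NDRG1, VEGFA and LDHA with the members, held few differences of that size. Of its 10 named and kept genes, 1 passed 1.5-fold, NDRG1 (10%, against 3.95% of all kept genes). NDRG1 is a member, so no gene of the signature passed beyond the members. Of the 10, 4 had a positive difference, with a median of -0.05. That median was -0.08 after loess correction, -0.11 after repeated quantile normalization and -0.21 with a level filter at the 75th percentile, where 0 genes passed. CDKN3, a mitotic phosphatase gene, differed by -0.46, MIF by 0.16, MRPS17 by -0.11 and ACOT7 by -0.06. ADM, PGAM1 and TPI1 are given above.

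None of the other 3 NDRG genes passed 1.5-fold, and some of the mitophagy genes did. NDRG3, the other kept NDRG gene, had a signal of 7.70 in the compressed culture, against 7.66 in the uncompressed culture, and NDRG2 and NDRG4, both under the floor, differed by 0.03 and -0.20. Of the mitophagy receptors and adaptors, 3 of 11 kept genes passed 1.5-fold upward, BNIP3L among them, and 0 downward. That is 27.3% upward, against 3.95% of all kept genes. The median of the 11 was 0.21, and repeated quantile normalization brought it to 0.14. Of the 10 kept mitophagy genes that are not in the HIF target list, 2 passed, with a median of 0.16. OPTN, an autophagy receptor for damaged mitochondria, had 7.50 in the compressed culture, against 6.76 in the uncompressed culture, a 1.67-fold difference. PINK1, the kinase that marks damaged mitochondria, had 6.94 in the compressed culture, against 6.27 in the uncompressed culture, a 1.59-fold difference. MAP1LC3B, which encodes an LC3 protein of autophagosomes, had 5.18 in the compressed culture, against 4.29 in the uncompressed culture, with a mean under the floor, and the LC3-like genes GABARAPL1, also under the floor, and GABARAP differed by 0.45 and 0.22. SQSTM1 and TAX1BP1 differed by 0.26 and 0.21. FUNDC1, the other hypoxia-linked mitophagy receptor, had 5.70 on both arrays.

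VEGFA and LDHA had few kept relatives. Of the VEGF ligands and receptors, 0 of 4 kept genes passed 1.5-fold, with a median of 0.22, which was -0.04 over all 9 named genes. NRP2, a co-receptor of VEGF and semaphorins, had 7.07 in the compressed culture, against 6.51 in the uncompressed culture (0.56), NRP1 differed by 0.24 and VEGFB by -0.04. VEGFC and the receptor genes FLT1, KDR and FLT4 were under the floor. Among the lactate genes, BSG, the chaperone of lactate transporters, differed by -0.34, and LDHB, with 3.08 in the compressed culture, against 3.07 in the uncompressed culture, was under the floor like LDHC, LDHD, LDHAL6A and LDHAL6B.

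The genes that run the oxygen-sensing system showed no difference of 1.5-fold. Of 8 kept regulators, 7 had a positive difference, with a median of 0.14. EPAS1, which encodes HIF-2 alpha, had 7.50 in the compressed culture, against 7.35 in the uncompressed culture, and ARNT had 7.77 in the compressed culture, against 7.67 in the uncompressed culture. The coactivator genes CREBBP and EP300 differed by 0.53 and 0.29 and the ubiquitin ligase gene SIAH2 by 0.19. HIF1A, VHL, EGLN2 and HIF1AN had no named probe set and were not analysed here. HIF activity is set largely by protein stability, which mRNA levels do not measure.

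**Figure D4:**
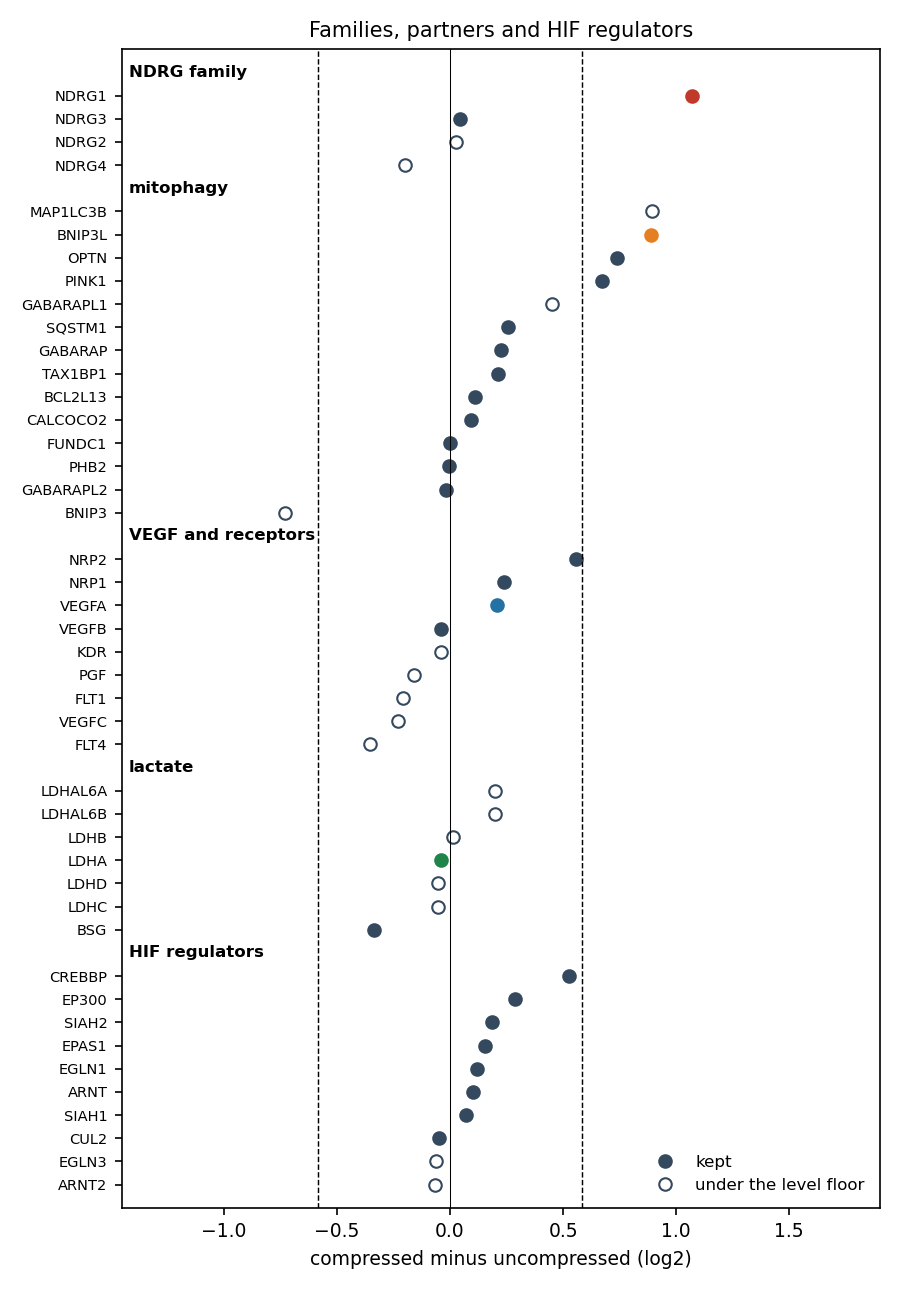
Compressed minus uncompressed difference (log2, horizontal axis) of the NDRG family, mitophagy genes, VEGF system, lactate genes and HIF regulators, 1 point per gene, filled where kept and open where under the level floor, with dashed lines at 1.5-fold. NDRG1, BNIP3L, OPTN and PINK1 are the filled points beyond the upper line.

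Lists of other regulators that share members with the HIF targets held genes of similar size. Of 7 kept ATF4 targets, 2 passed 1.5-fold, DDIT4 and SESN2 (28.6%, against 3.95% of all kept genes). Of the 7, 6 had a positive difference, with a median of 0.47. TRIB3 differed by 0.58, just under the rule, ATF4 by 0.47, ASNS by 0.38 and PSAT1 by -0.37, while ATF3 and DDIT3 lay under the floor, at differences of 1.01 and 0.88. Leaving out the genes that are also HIF targets, 1 of 5 kept ATF4 genes passed, with a median of 0.47, and the mean was 0.36, against 0.45 for all 7. With a level filter at the 75th percentile 0 of these passed, and with no filter 3 did. Of 6 kept FOXO targets, 2 passed, BNIP3L and PINK1 (33.3%, against the same 3.95%). Of the 6, 5 had a positive difference, with a median of 0.40. Of the 5 that are not HIF targets 1 passed, with a median of 0.28. With a level filter at the 75th percentile these medians were 0.67 and 0.48. Only BNIP3L, PINK1 and TXNIP were left for the first of them, and only PINK1 and TXNIP for the second. With no level filter 4 of 14 named FOXO targets and 4 of 10 named ATF4 targets were 1.5-fold higher, against 3.76% of all named genes. By the same size 1 FOXO target, BNIP3, was lower, on values under the floor, and 0 ATF4 targets were. IRS2 differed by 0.52 and BCL6 by -0.46, and FBXO32, under the floor, by 0.94. In the iron list HMOX1, heme oxygenase, differed by 1.23 and NCOA4 by 0.03, and the transferrin receptor gene TFRC was not analysed here. The part of any of these regulators in the differences of NDRG1 and BNIP3L was not tested.

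The promoter search set the members' pathway beside all genes. ACGTG in either orientation was found in 18.7% of 27305 promoter windows and in 23.6% of those of kept genes. Windows were matched for 23 of the 28 kept HIF targets, and 56.5% held it. They were matched for 210 of the 294 kept genes that were at least 1.5-fold higher, and 17.1% held it. NDRG1, BNIP3L and IGFBP1, which were higher by that size, had no window and are not in these shares. The HIF list was compiled from known targets, so its share is a description of that choice. LDHA, with 3 marked stretches, differed by -0.04 and DDIT4, with 1, by 1.10. LDHA and DDIT4 were shown because of these differences, so the contrast follows from that choice. A link between number of stretches and difference was not tested.

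The genes whose pair of levels lay closest to those of each member were sought among kept protein-coding genes, as a description over 2 arrays. For NDRG1 they were C6orf141, ANKRD36B and EZH1, at Euclidean distances of 0.064 to 0.13 log2 units. For BNIP3L they were CD68, MSMO1 and RIOK3, at 0.077 to 0.12. For VEGFA they were SRP19, CTSE and SWSAP1, and for LDHA CDK2AP2, KLHL4 and NOXA1, all within 0.025. With 2 arrays, closeness says only that level and difference were alike.

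The arrays had nearly the same medians over all 53617 probe sets, 3.72 in the compressed and 3.75 in the uncompressed culture, and the levels of kept genes correlated with Pearson's r = 0.972 across genes, which are not independent replicates. Of the markers of the labelled epithelial line, 7 of 8 named genes were kept, and 0 passed 1.5-fold. KRT18, KRT19, EPCAM and CEACAM6 lay between 10.43 and 11.71 in the compressed culture and between 10.77 and 11.54 in the uncompressed culture. For KRT18 this is the brighter probe set, and its second had 7.71 in the compressed culture, against 7.60 in the uncompressed culture. The other kept markers were dimmer. MSLN had 8.06 in the compressed culture, against 8.07 in the uncompressed culture. KRT8 had 6.21 and 6.13, and CEACAM5 5.51 and 5.45, in the same order. KRT7 was under the floor, at 3.78 in the compressed culture, against 3.36 in the uncompressed culture. Few markers of other cell types were named. The fibroblast marker DCN and the endothelial markers PECAM1, VWF and KDR were under the floor on both arrays, and the leukocyte marker CD14 was too. LUM, a proteoglycan gene listed for fibroblasts, had 9.39 in the compressed culture, against 9.75 in the uncompressed culture, and CD68, a lysosomal gene listed for leukocytes, had 9.26 in the compressed culture, against 8.45 in the uncompressed culture. CLDN5, a gene listed for endothelium, was kept, with 5.15 in the compressed culture, against 5.22 in the uncompressed culture (-0.06). Their part in the differences of the members was not tested.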

How the data were processed

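Total RNA of 1 compressed and 1 uncompressed AsPC-1 culture was measured on 1 array each. The deposited values are log2 signals per probe set, and per the submitters' processing notes the authors used RMA and the Transcriptome Analysis Console. RMA includes background correction and quantile normalization, so a change shared by all genes is removed. Their versions and a genome build were not given in the sources used here. Groups came from the treatment label.

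The platform annotation named 16098 of 53617 probe sets, updated to RefSeq symbols by gene identifier. For 779 of 14884 genes with several probe sets the brightest was used. Genes whose mean level reached the median over genes were kept. The difference, compressed minus uncompressed, was set against a fixed fold of 1.5, with no test. Alternatives were other level filters, the mean of probe sets, loess (span 0.3), median centring, repeated quantile normalization, protein-coding genes alone and sizes of 2-fold and 1.25-fold. A filter on the brighter array was added after the data were seen.

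Members and gene lists were chosen with earlier results of these data known. Named genes were the members, list genes past 1.5-fold, up to 4 others of each list by size, and fixed HIF regulators, paralogs and targets. Others were named after their values were seen. Computations used Python 3.11.15, pandas 2.3.3, NumPy 2.4.6, statsmodels 0.14.6 and matplotlib 3.10.9.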

Additional observations from a re-analysis of the deposited data

How the results depend on the processing

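No paired analysis was possible because each condition has 1 array, and for the same reason no replicate could be left out. Across the settings tried, the difference of NDRG1 ran from 1.02 to 1.07, of BNIP3L from 0.87 to 0.91, of VEGFA from 0.18 to 0.21 and of LDHA from -0.10 to -0.04. At 2-fold BNIP3L (0.89) no longer passed, which left 1 member. A level filter at the 75th percentile kept only BNIP3L of the members, so 1 passed there too. At the smallest size tried, 7 of 28 kept HIF targets were higher, as were 1005 of all 7442 kept genes. Without the members 2 of 24 were 1.5-fold higher, against 294 of 7442 kept genes. The median of the 28 kept HIF targets was 0.15. This median was 0.0043 with no level filter, 0.084 with the mean of probe sets and 0.088 after repeated quantile normalization. It was 0.079 without the members and -0.027 with the filter at the 75th percentile, so it has no settled sign. The cause was not tested. All genes higher and lower numbered 560 and 421 with no filter, 137 and 30 with the filter at the 75th percentile, 71 and 6 at 2-fold and 1005 and 616 at the smallest size. Of other named genes, MAFF (0.0058) and PHB2 (0.014) changed sign after loess correction and PGK1 (-0.030) after repeated quantile normalization. Dim signals near the floor limit what can be said of VEGFA and NDRG1 in the uncompressed culture.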
